A study of Sus scrofa domesticus with 8 samples.

Results

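HK1, HK2 and PGK1 encode 3 enzymes of glycolysis, and their transcripts were followed in pig ovarian granulosa cells over 144 h of culture. A feature is a set of probes that the array summarises into a single value. The features were those whose platform annotation held HK1, HK2 or PGK1, alone or with that symbol repeated. There were 4 of them among 27558 in all, 1 for HK1, 1 for HK2 and 2 for PGK1. The cells came from 43 crossbred Landrace gilts (median age 170 days, 98 kg), grew at 37 °C and 5% CO2 in DMEM holding 2% serum, 4 mM L-glutamine and antibiotics, and gave RNA at 0 h, before culture, and after 48 h, 96 h and 144 h. Each time had 2 arrays, 8 in all, and the groups differ by label in the length of culture alone. No label says whether the 2 arrays of a time are separate animals, pools or cultures, so a p-value here reflects the spread of these arrays, which may be technical. Batches are not given, so a batch that followed time and time itself cannot be told apart.

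Glycolysis splits glucose into pyruvate in the cytoplasm and yields ATP and NADH. Hexokinases add the first phosphate to glucose, which keeps it in the cell and opens the routes to glycolysis, glycogen, the pentose phosphate pathway and the hexosamines. HK1 encodes the hexokinase that most tissues express, and HK2 an isoform best known from muscle, fat and proliferating cells. Both enzymes can bind the outer mitochondrial membrane. PGK1 encodes phosphoglycerate kinase, which moves a phosphate from 1,3-bisphosphoglycerate to ADP at the first ATP-yielding step of the pathway. HK2 and PGK1 are known targets of hypoxia-inducible factor in other cells. In the follicle, granulosa cells take up glucose and pass pyruvate and lactate on to the oocyte.

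The values are log2 intensities, so a difference of 1 is a 2-fold difference. Levels of different features are not compared as amounts of transcript, because probes bind with different strength. A level set against the array median or lower quartile says only how bright that feature was. Calls required an adjusted p below 0.05 over all 27558 features (limma, two-sided). Array medians ran from 4.52 to 4.63, and lower quartiles from 3.13 to 3.25. The 4 features lay above these medians on every array. The 2 arrays of a time correlated at 0.985 (144 h) to 0.997 (96 h) across features. The 96 h arrays stood apart from the other cultured cells: 29.4% of all features were called between 96 h and 48 h, against 8.64% between 144 h and 48 h. These counts, 8089 and 2381, moved by over 1.5 times with 1 array left out, to between 4198 (without 96 h replicate 1) and 10294 (without either 144 h array) and to between 1070 (without 48 h replicate 1) and 3879 (without 144 h replicate 1), but the first was the larger in each of the 8 such fits. Of 10 granulosa marker genes listed, 6 had a named feature. Among these, INHBA (11.61 and 11.59), FST (11.16 and 11.31), HSD17B1 (10.78 and 10.90) and NR5A2 (9.37 and 9.41) were far above the 0 h medians of 4.60 and 4.63. AMH (5.43 and 5.63) was nearer to these medians, and ESR2 (4.82 and 4.77) lay just above them. FSHR, CYP19A1, INHA and FOXL2 were not analysed here.

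Transcripts of all 3 genes were higher in cultured than in fresh cells at every time, but they followed different courses. HK1 rose 3.08-fold by 48 h and 9.38-fold by 96 h, and came part of the way back by 144 h. HK2 rose 3.58-fold by 48 h and then differed little between times. PGK1 rose by 48 h, 2.12-fold by 1 feature and 2.45-fold by the other, and its 2 features disagreed on what followed at 96 h.

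**Figure D1:**
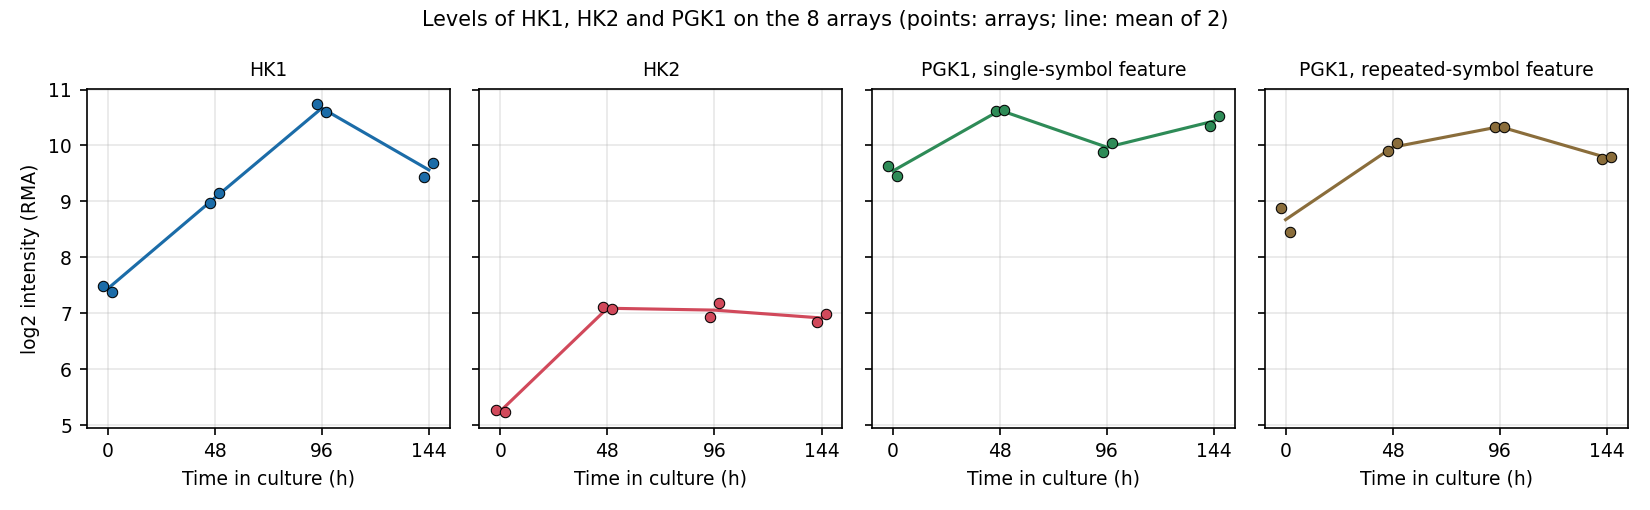
Log2 intensity (vertical axis) against hours in culture (horizontal axis) for the 4 features; points are single arrays, 2 per time, and lines join their means. HK1 peaks at 96 h with a mean of 10.67, HK2 is level after 48 h, and at 96 h PGK1 dips in its single-symbol feature and is highest in its repeated-symbol feature. Heights of different panels are not comparable.

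HK1 read 7.49 and 7.39 on the 0 h arrays, 8.97 and 9.15 at 48 h, 10.73 and 10.60 at 96 h, and 9.44 and 9.68 at 144 h. The arrays of every time were apart from those of every other time, as were 43.3% (144 h and 48 h) to 75.0% (96 h and 0 h) of all features in single comparisons. Against 0 h, the difference was 1.62 ± 0.13 at 48 h (SE, n = 2 arrays per time, adjusted p = 5.69e-05), 3.23 ± 0.13 at 96 h (adjusted p = 9.94e-07) and 2.13 ± 0.13 at 144 h (adjusted p = 9.39e-06). The 96 h difference was larger in size than that of 98.5% of all features, and the 48 h difference larger than that of 95.4%. HK1 climbed again between 48 h and 96 h, by 1.61 ± 0.13 or 3.04-fold (adjusted p = 0.000109). It then fell by 144 h, with a difference of -1.10 ± 0.13 from 96 h (adjusted p = 0.00101). The order of levels was therefore 0 h, 48 h, 144 h and 96 h. Of the neighbours in this order, 48 h and 144 h were not told apart by the test, with a difference of 0.50 ± 0.13 (95% interval 0.20 to 0.81, adjusted p = 0.0560). That difference was called after median centring (adjusted p = 0.0381), with dim features left out (0.0461), with a trended robust spread (0.0306) and without 144 h replicate 1 (0.0267); over all its alternatives the adjusted p ran from 0.0267 to 0.264.

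HK2 read 5.27 and 5.23 at 0 h, 7.11 and 7.07 at 48 h, 6.94 and 7.18 at 96 h, and 6.84 and 6.99 at 144 h. The 0 h arrays were the lowest, and the cultured arrays all lay between 6.84 and 7.18. The difference from 0 h was 1.84 ± 0.12 at 48 h (SE, n = 2 arrays per time, adjusted p = 2.17e-05), 1.81 ± 0.12 at 96 h (adjusted p = 1.19e-05) and 1.67 ± 0.12 at 144 h (adjusted p = 2.46e-05). The whole measured rise of HK2 thus fell within the first 48 h. At that time its difference was larger in size than that of 96.6% of all features. No change between the later times was called. The difference was -0.03 between 48 h and 96 h (95% interval -0.32 to 0.25, adjusted p = 0.872), -0.17 between 48 h and 144 h (-0.46 to 0.11, adjusted p = 0.511) and -0.14 between 96 h and 144 h (-0.43 to 0.14, adjusted p = 0.480). These intervals leave room for later changes of up to 0.46 on the log2 scale. The difference between 48 h and 96 h changed sign after median centring (0.03), after cyclic loess (0.03) and without 96 h replicate 1 (0.09).

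PGK1 had 2 features, and the one annotated with the symbol alone, which was the brighter over all arrays, stands for the gene. It read 9.63 and 9.46 at 0 h, 10.62 and 10.64 at 48 h, 9.89 and 10.05 at 96 h, and 10.34 and 10.53 at 144 h. The 0 h arrays were again the lowest and the 48 h arrays the highest. The difference from 0 h was 1.09 ± 0.13 at 48 h (SE, n = 2 arrays per time, adjusted p = 0.000385) and 0.89 ± 0.13 at 144 h (adjusted p = 0.000901), or 1.86-fold. At 96 h it was 0.42 ± 0.13 (adjusted p = 0.0274), no more than a usual change, since 56.9% of all features differed by less. This 96 h call was lost after quantile normalization (adjusted p = 0.0761), after cyclic loess (0.133), and without 0 h replicate 2 (0.155), 96 h replicate 1 (0.0634) or 96 h replicate 2 (0.187). From 48 h to 96 h the feature fell by 0.66 ± 0.13 on the log2 scale (adjusted p = 0.00561; 0.0621 without 96 h replicate 1). The 48 h and 144 h levels were not told apart, at -0.19 (95% interval -0.48 to 0.10, adjusted p = 0.467).

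The second PGK1 feature, whose annotation repeats the symbol, rose too but peaked at 96 h. It read 8.89 and 8.46 at 0 h, 9.90 and 10.04 at 48 h, 10.34 and 10.34 at 96 h, and 9.77 and 9.80 at 144 h. Its arrays of 1 time did not overlap those of any other, as was so for 43.3% (144 h and 48 h) to 75.0% (96 h and 0 h) of all features in single comparisons. The difference from 0 h was 1.30 ± 0.15 at 48 h (SE, n = 2 arrays per time, adjusted p = 0.000401), 1.66 ± 0.15 at 96 h (adjusted p = 5.58e-05) and 1.11 ± 0.15 at 144 h (adjusted p = 0.000759). Between 48 h and 96 h it gave 0.37 ± 0.15 (adjusted p = 0.109; 0.0309 when fitted to only the 4 arrays compared), the opposite sign to the first feature. Between 96 h and 144 h the first feature gave 0.47 ± 0.13 (adjusted p = 0.0315) and the second -0.56 ± 0.15 (adjusted p = 0.0336). Both of these last calls changed with single arrays, where an array left alone at its time was assumed to vary like the other times. The first was lost without any single 48 h or 96 h array or without 144 h replicate 2 (adjusted p of 0.0519 to 0.222), after median centring (0.0574) and after cyclic loess (0.0689). The second was lost without any single array of 48 h, 96 h or 144 h (adjusted p of 0.0507 to 0.161), while its value stayed between -0.57 and -0.54 in those fits.

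The distance between the 2 PGK1 features shows where they part. The second minus the first, set against its 0 h mean, was 0.13 and -0.13 at 0 h, 0.15 and 0.28 at 48 h, 1.32 and 1.16 at 96 h, and 0.30 and 0.14 at 144 h. It moved by 0.21 on the log2 scale from 0 h to 48 h and by 0.22 from 0 h to 144 h, but by 1.24 from 0 h to 96 h. The features thus gave like values for the rise at 48 h and 144 h, both were above 0 h at 96 h, and the size of that rise, and the direction of the change from 48 h to 96 h and from 96 h to 144 h, rest on which is read. Which transcript parts the probes of each feature cover is not given in the sources used here, and the part of the 96 h arrays in this split was not tested.

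**Figure D2:**
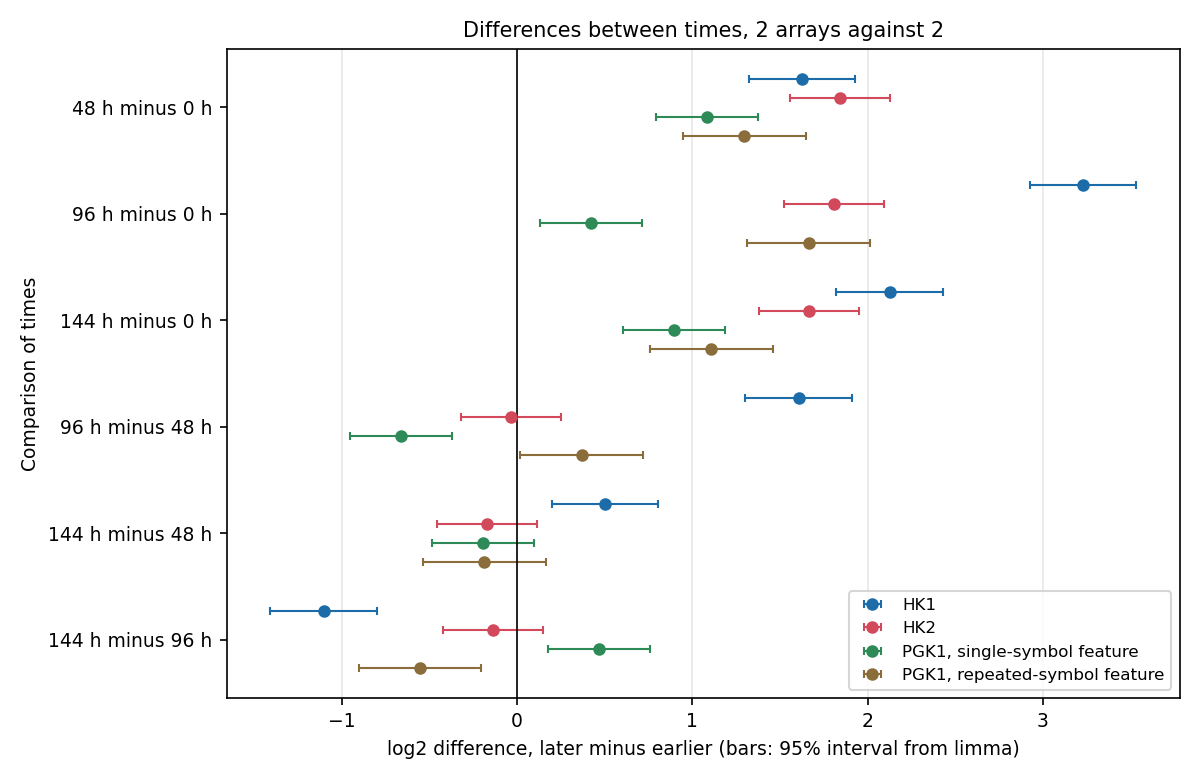
Log2 differences (horizontal axis) between each pair of times (vertical axis) for the 4 features, as points with 95% intervals from limma over the 8 arrays. All 4 features lie above 0 in the 3 comparisons with 0 h, and the PGK1 features lie on opposite sides of 0 in both comparisons of 96 h with another cultured time.

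Counted together, 4 of 4 features were called higher at 48 h than at 0 h, where 15.2% of all features were higher, 14.8% lower and 30.0% called either way. At 96 h, 4 of 4 were higher, against 19.0% of all (22.3% lower, 41.3% either way). At 144 h, 4 of 4 were higher, against 15.4% of all (16.7% lower, 32.1% either way). In these comparisons with 0 h the arrays of all 4 features were also apart, as were those of 65.8%, 75.0% and 60.8% of all features. These comparisons share the 0 h arrays, and PGK1 counts in 2 features. Between 48 h and 96 h, 1 feature was higher (HK1; 13.4% of all) and 1 lower (the single-symbol PGK1 feature; 16.0% of all), while arrays of 71.2% of all features were apart. Between 48 h and 144 h limma called none of the 4, against 8.64% of all (4.32% higher, 4.32% lower), and HK1 was the only 1 of the 4 past 0.05 before adjustment. The arrays of all 4 were apart there, as were those of 43.3% of all features. Between 96 h and 144 h, 1 was higher (12.1% of all) and 2 lower (10.1% of all; 22.2% either way, 60.5% apart). Over the 4 times together, limma's F test called all 4 (47.5% of all features), with adjusted p of 4.37e-06 for HK1, 2.42e-05 for HK2, 0.000678 for the first PGK1 feature and 0.000224 for the second. Without the 96 h arrays, a fit chosen after seeing the data, the 4 features kept their calls at 48 h and 144 h against 0 h, with adjusted p of at most 0.00292.

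Whether the genes changed unequally was asked from their ratio within each array, which a constant shift of an array leaves as it is. Ratios are given relative to their 0 h mean, since their level has no meaning between probes. The log2 ratio of HK2 to HK1 was -0.029 and 0.029 at 0 h, 0.33 and 0.10 at 48 h, -1.61 and -1.24 at 96 h, and -0.42 and -0.50 at 144 h. Its mean moved by 0.22 at 48 h, -1.42 at 96 h and -0.46 at 144 h. HK2 thus kept near pace with HK1 up to 48 h, and the balance then shifted towards HK1, most at 96 h. An exact permutation test of the F statistic over the 4 times gave p = 0.00952 (one-sided for a large F, the smallest that 8 arrays in 4 pairs allow; 0.0143 adjusted over the 3 pairs of genes). The ratio of HK1 to the first PGK1 feature moved by 0.54 at 48 h, 2.81 at 96 h and 1.23 at 144 h (exact permutation p = 0.00952, adjusted p = 0.0143), and by 0.33, 1.57 and 1.02 with the second PGK1 feature (exact permutation adjusted p = 0.0143). The ratio of HK2 to the first PGK1 feature moved by 0.76, 1.38 and 0.77 (exact permutation p = 0.0190, adjusted p = 0.0190). With the second PGK1 feature the moves were 0.55, 0.14 and 0.56 and that last result was lost (exact permutation p = 0.0952), so an unequal change of HK2 and PGK1 rests on the feature read.

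**Figure D3:**
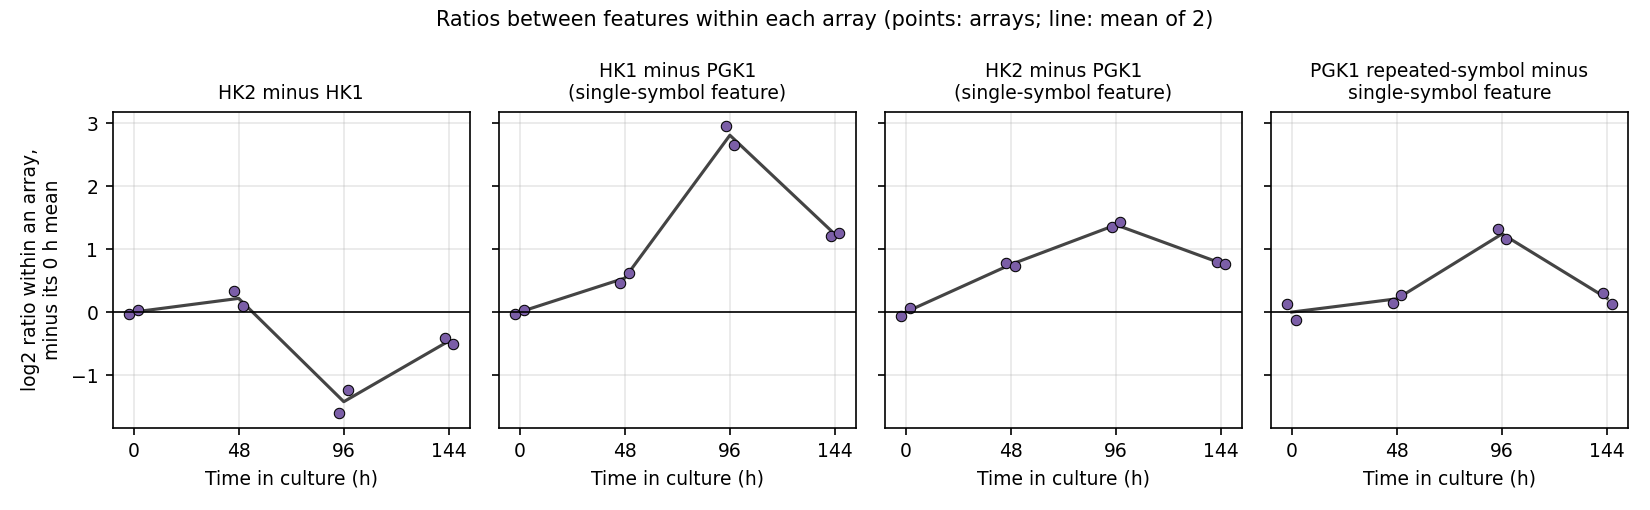
Log2 ratio of 2 features within an array, minus its mean at 0 h (vertical axis), against hours in culture; points are arrays, 2 per time, and lines join their means. The HK2 to HK1 ratio drops at 96 h by 1.42, and the 2 PGK1 features part by 1.24 at that time and by 0.21 and 0.22 at 48 h and 144 h.

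The hexokinase family has other members, and their transcripts did not follow HK1 or HK2. HKDC1, which encodes a hexokinase domain protein and is the protein-coding gene next to HK1 in the Sscrofa11.1 annotation, read 3.33 and 3.38 at 0 h, near the lower quartile. It was higher at 48 h (4.08 and 4.41; difference 0.89 ± 0.15, adjusted p = 0.00309), but not called at 96 h (0.30, adjusted p = 0.170) or 144 h (-0.12, adjusted p = 0.636). HK3, best known from white blood cells, lay between 4.40 and 5.18 on the 8 arrays and was not called against 0 h at any time (adjusted p of 0.0610 to 0.902). PGK2, the testis phosphoglycerate kinase, lacked a named feature and is not analysed here.

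Along the rest of glycolysis, 13 other enzymes had a named feature, of 24 genes listed with HK1, HK2 and PGK1. At 48 h, 8 of the 13 were called higher than at 0 h and none lower, where 15.2% and 14.8% of all features were. Their median was 0.51 on the log2 scale, against -0.04 over all features. At 96 h, 5 were higher and 1 lower (19.0% and 22.3% of all; median 0.08, all features -0.03). At 144 h, 5 were higher and none lower (15.4% and 16.7% of all; median 0.19, all features -0.05). Of the 13, ENO3 alone differed by more than HK1 at 48 h (1.77), and none by more than HK2; at 96 h ENO3 differed by more than either (3.41). With HK1, HK2 and PGK1 counted, the list had 11 of 16 higher at 48 h, 8 at 96 h and 8 at 144 h; the 96 h count was 5 without either 96 h array. The list was drawn up with earlier results of these data known.

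Between glucose 6-phosphate and the steps before PGK1, 4 of 5 measured enzymes were called higher at 48 h, where 15.2% of all features were. GPI, the isomerase after hexokinase, rose by 0.51 ± 0.11 at 48 h (adjusted p = 0.00818) and stood at 0.08 and 0.05 at 96 h and 144 h; its other feature gave 0.55, 0.47 and 0.18, the first 2 called. PFKP, a phosphofructokinase of the committed step, rose by 1.07 ± 0.11 at 48 h (adjusted p = 0.000212), stood at 0.07 at 96 h and was at 0.34 at 144 h (adjusted p = 0.0489). ALDOC, an aldolase, differed by 0.68 ± 0.17 at 48 h (adjusted p = 0.0192), -0.23 at 96 h and 0.77 at 144 h (adjusted p = 0.00974). TPI1, the triose phosphate isomerase, rose by 0.37 ± 0.11 at 48 h (adjusted p = 0.0407) and fell below 0 h at 96 h, at -0.44 ± 0.11 (adjusted p = 0.0138). GAPDH, which feeds the PGK1 step, differed by 0.33 at 48 h, 0.50 at 96 h and 0.19 at 144 h, and was called at 96 h alone (adjusted p = 0.0196). From 48 h to 96 h the test called GPI, PFKP, ALDOC and TPI1 lower, as it did the first PGK1 feature but not the second (0.37, adjusted p = 0.109). In the whole glycolytic list, 7 of 16 genes were lower and 3 higher in that comparison (16.0% and 13.4% of all features). HK1 and ENO3 were among those higher. The other GPI feature gave -0.08 in that comparison (adjusted p = 0.669).

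After PGK1, 3 genes were called higher at all times, and PGAM2, PKLR and LDHB were not. Of all features, 15.2%, 19.0% and 15.4% were higher at 48 h, 96 h and 144 h. ENO3, the enolase best known from muscle, differed from 0 h by 1.77 ± 0.15 at 48 h, 3.41 ± 0.15 at 96 h and 1.63 ± 0.15 at 144 h (adjusted p of 8.38e-05, 1.51e-06 and 9.78e-05). Like HK1 it was highest on the 96 h arrays, at 8.64 and 8.74, from 5.17 and 5.39 at 0 h. PKM, the pyruvate kinase of most tissues, rose by 1.17, 1.39 and 1.09 (SE 0.10 each, adjusted p of at most 0.000103). LDHA, which makes lactate from pyruvate, rose by 0.99, 0.65 and 0.62 (SE 0.10 each, adjusted p of at most 0.00239). PKLR and LDHB lay below the lower quartile at 0 h, with means of 2.77 and 2.82. PKLR, counted above as higher at 96 h (0.41, adjusted p = 0.0289), reached a mean of 3.17 there, at the level of the lower quartile. PGAM2 was not called (0.09 at 144 h, adjusted p = 0.771).

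**Figure D4:**
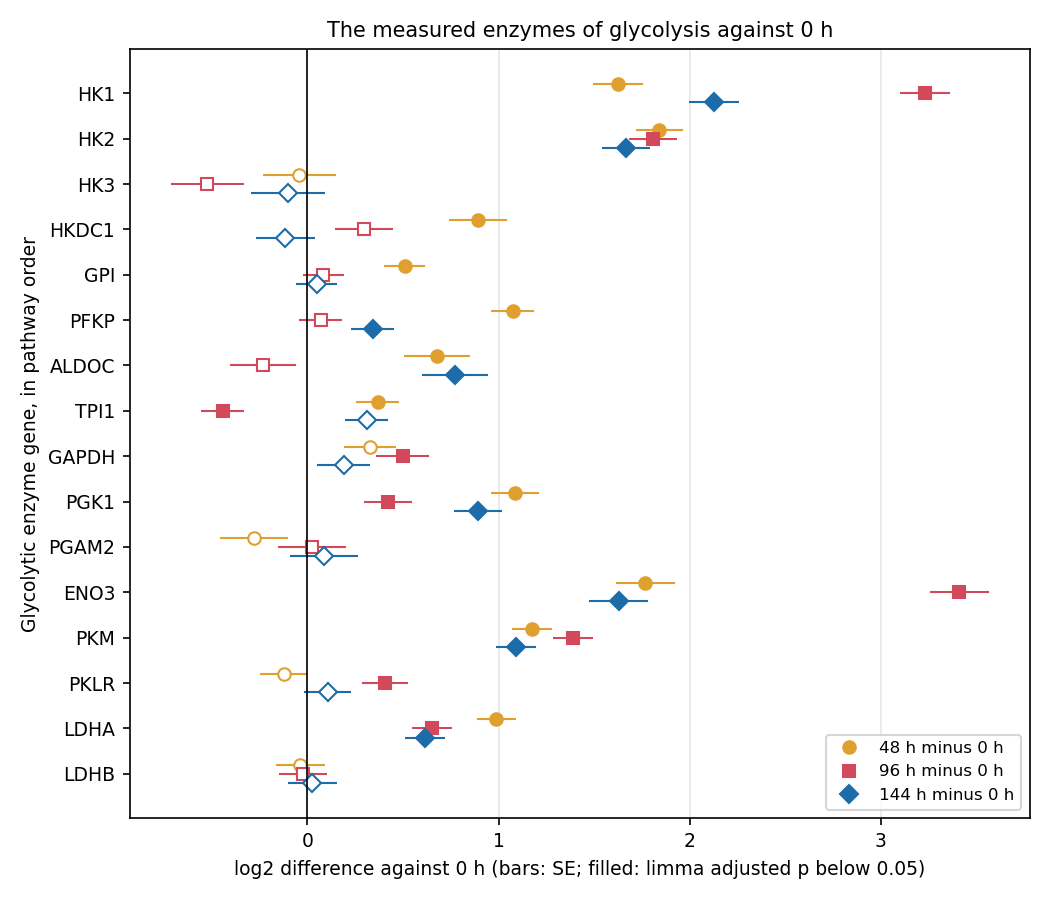
Log2 differences against 0 h (horizontal axis) for the 16 measured genes of the glycolytic enzyme list in pathway order (vertical axis), at 48 h, 96 h and 144 h; bars are SE from limma and filled symbols passed an adjusted p below 0.05. HK1 and ENO3 stand out at 96 h, with 3.23 and 3.41, and HK2 has its 3 symbols together between 1.67 and 1.84.

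Glucose reaches hexokinase through SLC2A carriers, and 6 of 13 listed carriers of glucose or lactate had a named feature, SLC2A1 and SLC2A3 not among them. SLC2A8 fell, by 1.05 ± 0.18 on the log2 scale at 48 h and by 1.39 ± 0.18 at 144 h (adjusted p of 0.00310 and 0.000588). SLC2A10 reached 0.92 ± 0.11 and the inositol carrier SLC2A13 0.92 ± 0.13 at 144 h (adjusted p of 0.000337 and 0.00105). SLC2A4, the insulin-regulated carrier, had differences of -0.33, -0.46 and -0.28 and was called at 96 h alone. Of the monocarboxylate carriers, SLC16A1 rose by 0.48 to 0.90 at the 3 times, and SLC16A7 fell by 0.87 at 48 h and stood 1.26 above 0 h at 96 h and 0.88 above at 144 h, all called. In all, 2 of the 6 carriers were higher and 2 lower at 48 h (15.2% and 14.8% of all features), 4 higher and 2 lower at 96 h (19.0% and 22.3%), and 4 higher and 1 lower at 144 h (15.4% and 16.7%).

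Of 7 listed mitochondrial partners of hexokinase, 4 had a named feature, SLC25A4, SLC25A5 and SLC25A6 not among them. At 48 h, 96 h and 144 h, 2 were higher (15.2%, 19.0% and 15.4% of all features), and 1 was lower at 96 h (22.3% of all). The channel genes VDAC1 and VDAC2, whose proteins hexokinases dock on, rose. VDAC1 differed by 0.92, 0.77 and 1.02 at 48 h, 96 h and 144 h (SE 0.11 each, adjusted p of at most 0.000597). VDAC2 differed by 0.62, 0.74 and 0.58 (SE 0.13 each, adjusted p of at most 0.0104). VDAC3 had 0.38, 0.29 and 0.35 and was not called against 0 h (adjusted p of 0.0539 to 0.105). PPIF, which encodes cyclophilin D, had -0.45, -0.81 and -0.56 and was called at 96 h alone (adjusted p = 0.0257).

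Genes of the hypoxia-inducible factor pathway moved in both directions beside HK2 and PGK1. Of 28 listed, 20 had a named feature. At 48 h, 6 were higher and 2 lower (15.2% and 14.8% of all features; median 0.14). Beside BHLHE40, those higher at 48 h were ERO1A (1.13), KDM3A (1.12), P4HA1 (0.84), PDK1 (0.83) and VHL (0.83), named after their values were seen. Means went the other way for PFKFB4 (6.86 at 0 h, 5.39 at 48 h), ANGPTL4 (6.87 and 6.18), DDIT4 (7.03 and 6.47) and EPAS1 (7.85 and 7.29), among others. These too were named after their values were seen. At 96 h, 6 were higher and 6 lower (19.0% and 22.3% of all), and at 144 h 3 were higher and 5 lower (15.4% and 16.7% of all; median 0.05). HIF1A, the oxygen-regulated subunit, differed by 0.13 at 48 h (adjusted p = 0.441), 0.41 at 96 h (adjusted p = 0.0165) and 0.07 at 144 h (adjusted p = 0.674). The largest differences at 144 h were those of BHLHE40, a circadian and hypoxia-responsive repressor, at 4.39 ± 0.11, and of ANGPTL4 (-1.80 ± 0.43), DDIT4 (-1.75 ± 0.16), MXI1 (-1.11 ± 0.11) and PFKFB4 (-0.98 ± 0.25), all called.

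Transcripts on lists of cell type marker genes, granulosa cells among them, moved beside these rises. Which cells held these transcripts was not tested. In samples that may hold several cell types, a change in the number of cells of a type and a change in RNA per cell cannot be told apart. The level of a list is the log2 of its summed intensity, which its brightest genes dominate. The theca and stroma list (5 of 7 measured) had a level of 7.84 to 8.03 at 0 h, 10.51 to 10.53 at 48 h, 12.11 to 12.14 at 96 h and 12.58 to 12.89 at 144 h. At 144 h 2 of the 5, DCN and COL1A1, were higher (15.4% of all features) and 1, INSL3, lower (16.7% of all). CYP17A1 was at or below the lower quartile at all times, and NR2F2 was not called at 144 h. The granulosa list (6 of 10 measured) went from 12.95 to 13.02 at 0 h down to 9.50 to 9.97 at 144 h, with 5 of 6 lower (16.7% of all). The oocyte list (5 of 7 measured) went from 7.82 to 7.99 at 0 h to 6.37 to 6.43 at 144 h, with 4 of 5 lower (16.7% of all). The leukocyte list (7 of 9 measured) lay between 7.70 and 8.06 on the 8 arrays, while its members moved apart. At 96 h 2 were higher and 3 lower (19.0% and 22.3% of all), among them LYZ (mean 5.27 at 0 h, 7.02 at 96 h) and TYROBP (6.49 and 4.30). The endothelial list (5 of 7) lay between 6.13 and 6.62 and the red cell list (3 of 7) between 4.40 and 4.89. Against 0 h, 1 endothelial gene was higher and 1 lower at each time (15.2% to 19.0% and 14.8% to 22.3% of all). The mean of PECAM1 went from 4.54 at 0 h to 5.68 at 144 h, and that of KDR from 3.72 to 3.06. The part of these lists in the levels of HK1, HK2 and PGK1 was not tested.

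Other transcripts followed these genes closely, by Pearson's r of log2 intensity over the 8 arrays, among 2969 named genes that changed over time with a range of at least 1. The r values rest on 4 times of 2 arrays each and are a description. For HK1 the closest were NUCB2 (r = 0.996), MTPN (0.995), SELENOS (0.993), PPP1R14B (0.992) and ABR (0.991). NUCB2, which encodes the calcium-binding nucleobindin 2, had means of 6.25, 7.94, 9.43 and 8.35 at 0 h, 48 h, 96 h and 144 h. For HK2 they were the cytokine gene IL1A (0.993), LIN7A (0.993), the receptor gene PDGFRB (0.993), GSTO1 (0.993) and HIVEP2 (0.992); IL1A had means of 4.39, 6.88, 6.93 and 6.87. The first PGK1 feature was closest to the complement gene C9 (0.983), CHI3L1 (0.982), B4GALT5 (0.982), SMAGP (0.976) and PARM1 (0.975), with means of 4.64, 9.53, 6.47 and 7.97 for CHI3L1. The second was closest to EXOC5 (0.991), PGD (0.988), SLC35F2 (0.986), CRY1 (0.986) and TGFB1 (0.986). None of the 5 names was shared between the 2 PGK1 features. PGD, an enzyme of the pentose phosphate pathway, had means of 7.70, 8.64, 8.86 and 8.47.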

How the data were processed

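The deposited values are log2 intensities, and the submitters' processing notes name RMA (robust multi-array average); no version is given in the sources used here. RMA forces arrays to 1 distribution, which hides a shift common to most transcripts. The arrays were Affymetrix whole-transcript arrays with biotin label, per the labels' protocols. The table held 27558 features on 8 arrays with no missing value and was used as deposited. Groups came from the times and replicate numbers in the sample titles. Features were named through GEO's platform annotation, with 6 symbols updated through the gene identifier: 11735 features had 1 symbol, 239 a repeated one, 373 several and 15211 none in the table used.

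In R 4.3.3, limma 3.58.1 (lmFit, eBayes) fitted a mean for each time over all features, with 4 residual and 3.98 prior degrees of freedom; the code was checked on simulated data. All 6 pairs of times were tested two-sided and the 4 times together by F test, with Benjamini-Hochberg adjustment over all features. The median SE of a difference was 0.143, and the number of arrays limits the precision. The feature with the highest mean stood for a gene, with 1 symbol preferred to a repeated one; for PGK1 both were described. Ratios were tested by enumerating all splits of the arrays.

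The named genes were the members, all measured glycolytic enzymes and carriers, in each other list up to 5 members by size of change at 144 h, and the 5 transcripts most correlated with a member feature. HIF1A and the other hypoxia pathway genes named for their 48 h values were added after those values were seen. The glycogen genes GBE1, PGM1 and PYGM were also named outside this rule. The members and lists were chosen with earlier results of these data known. Alternatives were median centring, quantile normalization, cyclic loess, leaving out dim features (those above the 40th percentile of the array on fewer than 2 arrays), a trended robust spread, the replicate number as a block, only the 4 arrays compared, a fold minimum of 2 (on counts alone), a stricter threshold of 0.01, other features of a gene, and leaving out each array. A fit without the 96 h arrays was added after seeing the data. No source names the genome build of the features, so no positions or sequences were used; RefSeq's Sscrofa11.1 table served for names and neighbours.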

Additional observations from a re-analysis of the deposited data

How the results depend on the processing

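With 2 arrays per time, the differences of HK1 and HK2 against 0 h kept their direction and call under all alternatives run on single genes, as did PGK1 at 48 h and 144 h; the fold minimum was run on counts alone, and PGK1 at 144 h (1.86-fold) lies under it. PGK1 at 96 h against 0 h (0.42) was lost after quantile normalization (0.35), after cyclic loess (0.29) and at an adjusted p below 0.01 (0.42). PGK1 at 144 h against 96 h (0.47) was lost after median centring (0.39), after cyclic loess (0.41), at an adjusted p below 0.01 (0.47) and with only the 4 arrays compared (0.47), and its other feature reversed it (-0.56) and the step from 48 h to 96 h (0.37). HK1 at 144 h against 48 h was called after median centring (0.51), with dim features left out (0.50) and with a trended robust spread (0.50). HK2 at 96 h against 48 h reversed after median centring (0.025), cyclic loess (0.029) and without 96 h replicate 1 (0.086), from a value not called. The adjusted p of the HK2 to PGK1 ratio was 0.0952 with the other PGK1 feature. The cause of these shifts was not tested. Leaving out each array in turn gave 0.33 to 0.51 for PGK1 at 96 h against 0 h, -0.74 to -0.58 at 96 h against 48 h and 0.37 to 0.57 at 144 h against 96 h, 0.38 to 0.62 for HK1 at 144 h against 48 h, and -0.15 to 0.086 for HK2 at 96 h against 48 h. It gave 4198 to 10294 called features at 96 h against 48 h, 1070 to 3879 at 144 h against 48 h, 2437 to 7320 at 144 h against 96 h, and 5 to 8 glycolytic enzymes higher at 96 h.

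At an adjusted p below 0.01, called features numbered 5147 at 48 h against 0 h, 4688 at 96 h against 48 h, 1120 at 144 h against 48 h and 3033 at 144 h against 96 h, with 5 glycolytic enzymes higher at 96 h. With a fold of at least 2 they numbered 3038, 5147 and 3676 at 48 h, 96 h and 144 h against 0 h, 2669 at 96 h against 48 h, 865 at 144 h against 48 h and 1710 at 144 h against 96 h, with 6, 4 and 4 glycolytic enzymes higher at the 3 times. The count at 144 h against 48 h (2381) was 825 with only the 4 arrays compared and 1576 without the 96 h arrays.

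Same-numbered arrays deviated together by over 0.1 in 1 of 6 pairs of times, 144 h and 48 h (correlations of -0.04 to 0.19). Such correlations cannot show whether arrays with the same replicate number share a pool or culture. With the replicate number as a block, HK1 at 48 h against 0 h stayed at 1.62 (limma adjusted p = 0.000158), and no call of the 4 features changed.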

Other observations

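Other genes that act on the products of hexokinase and glycolysis also moved, in ways the text above does not describe. Of 22 listed genes of the pentose phosphate pathway, glycogen and hexosamine synthesis, 16 had a named feature, with 8 called higher at 48 h and 1 lower (15.2% and 14.8% of all features). At 144 h, 8 were higher and 2 lower (15.4% and 16.7% of all). GYS1, the glycogen synthase, rose by 1.47 ± 0.12 at 48 h, 2.08 ± 0.12 at 96 h and 1.81 ± 0.12 at 144 h, and UGP2, which makes UDP-glucose, rose by 1.53 ± 0.15 at 144 h (SE, n = 2 arrays per time, limma adjusted p of 1.68e-05 for GYS1 and 0.00014 for UGP2 at 144 h). PYGL, a glycogen phosphorylase that breaks glycogen down, rose by 1.12 ± 0.11 at 144 h. Other glycogen genes differed. GBE1 was higher at 144 h (0.93 ± 0.29, limma adjusted p = 0.0389), though its 144 h arrays read 7.99 and 6.93. PGM1 was lower at 144 h (-0.42, limma adjusted p = 0.0175) and the phosphorylase PYGM was not called (0.06, adjusted p = 0.844). PGM3, of hexosamine synthesis, rose by 1.18 ± 0.15, and RPIA, of the pentose phosphate pathway, fell by 0.96 ± 0.12.

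The kinases that shut pyruvate dehydrogenase moved in opposite directions. PDK4 read 8.07 and 8.33 at 0 h, 6.98 and 6.88 at 48 h, 3.43 and 3.24 at 96 h, and 4.48 and 3.92 at 144 h, so that it differed by -4.00 ± 0.19 at 144 h (limma adjusted p = 2.67e-06). PDK3 rose by 2.62 ± 0.12 at 144 h (adjusted p = 2.03e-06) by its brighter feature, while its other feature, with a mean of 2.83 at 0 h, gave -0.09 and was not called. PDK1 rose by 0.78 ± 0.15 and PFKFB2 by 0.69 ± 0.13 at 144 h (adjusted p of 0.00498 and 0.00438). Of 12 measured genes of this control list, 3 were higher and 2 lower at 48 h (15.2% and 14.8% of all features). At 96 h 3 were higher and 6 lower (19.0% and 22.3% of all), and at 144 h 3 higher and 3 lower (15.4% and 16.7% of all). Of 7 measured genes for making glucose, none was higher and 2 lower at 48 h (15.2% and 14.8% of all features). At 96 h 1 was higher and 2 lower, near the shares of all features (19.0% and 22.3%). At 144 h none was higher and 3 were lower (15.4% and 16.7% of all). These 3 were SLC37A4, the glucose 6-phosphate carrier (-0.81 ± 0.23), PC, pyruvate carboxylase (-0.55 ± 0.12, or -0.40 by its other feature, not called), and FBP2 (-0.43 ± 0.12). PCK1 and PCK2 were not called (-0.29 and 0.35).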
